A study of Mus musculus with 75 samples.

Results

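Alveolar fluid clearance, the removal of liquid from the air spaces across the alveolar lining, was described here by the transcripts of 8 channel and pump genes in the lungs of bleomycin-treated mice (BLEO-IPF mice). The genes were the 3 subunits of the epithelial sodium channel ENaC (Scnn1a, Scnn1b and Scnn1g), the beta 1 subunit of the sodium pump (Atp1b1), 3 water channels (Aqp5, Aqp4 and Aqp1) and the chloride channel Cftr. They were taken by symbol from the count table, in which each symbol was found once, and they made up 8 of its 55536 genes. All 8 passed the filter on low counts and were tested together with 16221 genes in all.

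Sodium enters alveolar epithelial cells from the air space through apical channels, of which ENaC is the best known, and the Na,K-ATPase pumps it out at the basal side. Chloride follows in part through CFTR, and water follows the salt, partly through aquaporins. In the lung AQP5 is known from the apical membrane of type 1 alveolar cells (AT1 cells), AQP1 from the endothelium of small vessels, and AQP4 from the basolateral membrane of airway epithelium, while ENaC and the pump are found in both AT1 cells and the surfactant-making type 2 cells (AT2 cells).

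The study followed male C57BL/6JRj mice aged 12 to 14 weeks after 1 intratracheal instillation of bleomycin (BLEO), an antibiotic that injures the lung, and RNA of the inferior lobe was sequenced after enrichment for polyadenylated transcripts. The 65 BLEO-IPF mice were killed on day 7 (10 mice), days 14, 21, 28 and 35 (12 mice each) or day 42 (7 mice), and were enrolled after a loss of 5 to 17% of body weight at day 6. The 10 control mice (CTRL) carry the label saline, although the treatment text of the labels calls controls untreated. All 6 BLEO days were compared with the same CTRL mice. Libraries held 9240291 to 14665247 counts, and levels are given as CPM, counts scaled to the effective size of the library. In RNA of a whole lobe, fewer cells of a type and less RNA per cell cannot be told apart. The label lung was checked against marker genes, and the 8 AT1, 8 AT2 and 8 endothelial markers were detected, with summed levels of at least 3290, 5802 and 1764 CPM in every mouse. One library, mouse 10 of day 28, stood apart with a summed skeletal muscle marker level of 1141 CPM, while the median of its group was 4.90 CPM.

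Scnn1g and Scnn1b lie in tandem on the plus strand of chromosome 7 of GRCm38, at chr7:121734479-121768475 and chr7:121865038-121918514, with 96562 bases between them. Cftr, Scnn1a and Aqp1 lie on chromosome 6, at chr6:18170687-18322768, chr6:125320659-125344943 and chr6:55336432-55348555. Atp1b1 lies at chr1:164437109-164458355 on the minus strand, and Aqp5 at chr15:99590782-99594829. Scnn1b overlaps Cog7 on the opposite strand without a shared exon, and exons of Atp1b1 overlap those of Nme7, also on the opposite strand. The libraries kept strand, but how strand was treated in counting is not given in the sources used here. Reads of Atp1b1 and Nme7 might thus be shared, and those of Scnn1b and Cog7 only if counted outside exons. Nme7 had 3.61% as many counts as Atp1b1, and Cog7 had 40.6% as many as Scnn1b.

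The promoters of the neighbours Scnn1g and Scnn1b, whose transcripts moved apart, and of Cftr, which had the largest change of the 8 genes, are shown from RefSeq (GRCm38.p6). Each line gives the 250 bases before the transcription start, 5′ to 3′ on the plus strand, at chr7:121734229-121734478, chr7:121864788-121865037 and chr6:18170437-18170686. Capitals mark a GC box (GGGCGG on either strand).
Scnn1g: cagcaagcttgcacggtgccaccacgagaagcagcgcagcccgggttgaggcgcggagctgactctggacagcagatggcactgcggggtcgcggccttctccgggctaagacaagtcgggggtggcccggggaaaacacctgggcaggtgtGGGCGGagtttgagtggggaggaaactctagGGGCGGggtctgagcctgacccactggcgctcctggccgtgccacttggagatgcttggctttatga
Scnn1b: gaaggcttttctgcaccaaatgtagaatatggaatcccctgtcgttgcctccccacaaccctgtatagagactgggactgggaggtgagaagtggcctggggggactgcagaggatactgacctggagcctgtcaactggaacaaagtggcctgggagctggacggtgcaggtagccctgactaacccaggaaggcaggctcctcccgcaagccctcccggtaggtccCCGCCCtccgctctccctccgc
Cftr: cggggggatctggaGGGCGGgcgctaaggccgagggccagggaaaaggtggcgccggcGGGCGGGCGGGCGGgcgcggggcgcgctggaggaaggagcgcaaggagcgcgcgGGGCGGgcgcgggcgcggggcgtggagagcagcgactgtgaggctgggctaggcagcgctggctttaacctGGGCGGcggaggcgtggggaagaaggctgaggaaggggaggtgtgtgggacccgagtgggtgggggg
The Cftr promoter held 6 GC boxes, some of them overlapping, that of Scnn1g held 2 and that of Scnn1b held 1. Of all 32851 promoters in the table, 32.7% held at least 1, and so did each of the 6 members that had a promoter there. Other motifs were searched on both strands and found in none of the 3 windows shown. The letters TATAAA of a TATA box were held by 12.4% of all promoters and the CCAAT box by 33.8%. An AP-1 site (TGANTCA) was held by 6.75%, and the half-site of the glucocorticoid receptor, AGAACA, by 16.1%. The share of G and C was 76.4% for Cftr, 65.2% for Scnn1g and 60.8% for Scnn1b, with a median of 52.4% over all promoters. These matches describe the sequence and do not show that a factor binds there.

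Cftr fell and Scnn1g rose on days 7 to 21, Atp1b1 rose on day 7, Scnn1b fell on days 14 and 28 and Scnn1a fell on day 28, whereas Aqp1, Aqp4 and Aqp5 did not pass the test on any day. In edgeR's quasi-likelihood test with Benjamini-Hochberg adjustment over all genes tested, at a threshold of 0.05, 3 of the 8 genes were differentially expressed (DEGs) on day 7, when 45.8% of all genes tested were called. On day 14 it was again 3, beside 62.4% of all genes. The calls numbered 2 on day 21 and 2 on day 28, when 54.2% and 43.3% of all genes were called. No gene of the 8 passed edgeR's test on days 35 and 42, when 29.9% and 24.7% of all genes did. At an unadjusted p under 0.05 the counts of those days were 0 and 1, DESeq2 called 0 and 0, and an edgeR fit of only the groups compared called 1 (Scnn1a) and 2 (Scnn1a and Aqp5). The share of the 8 genes called was below that of all genes on each of the 6 days. The median size of their log2 fold changes (log2FC) was 0.24 on day 7 and 0.14 on day 14, beside 0.24 and 0.31 for all genes.

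**Figure D1:**
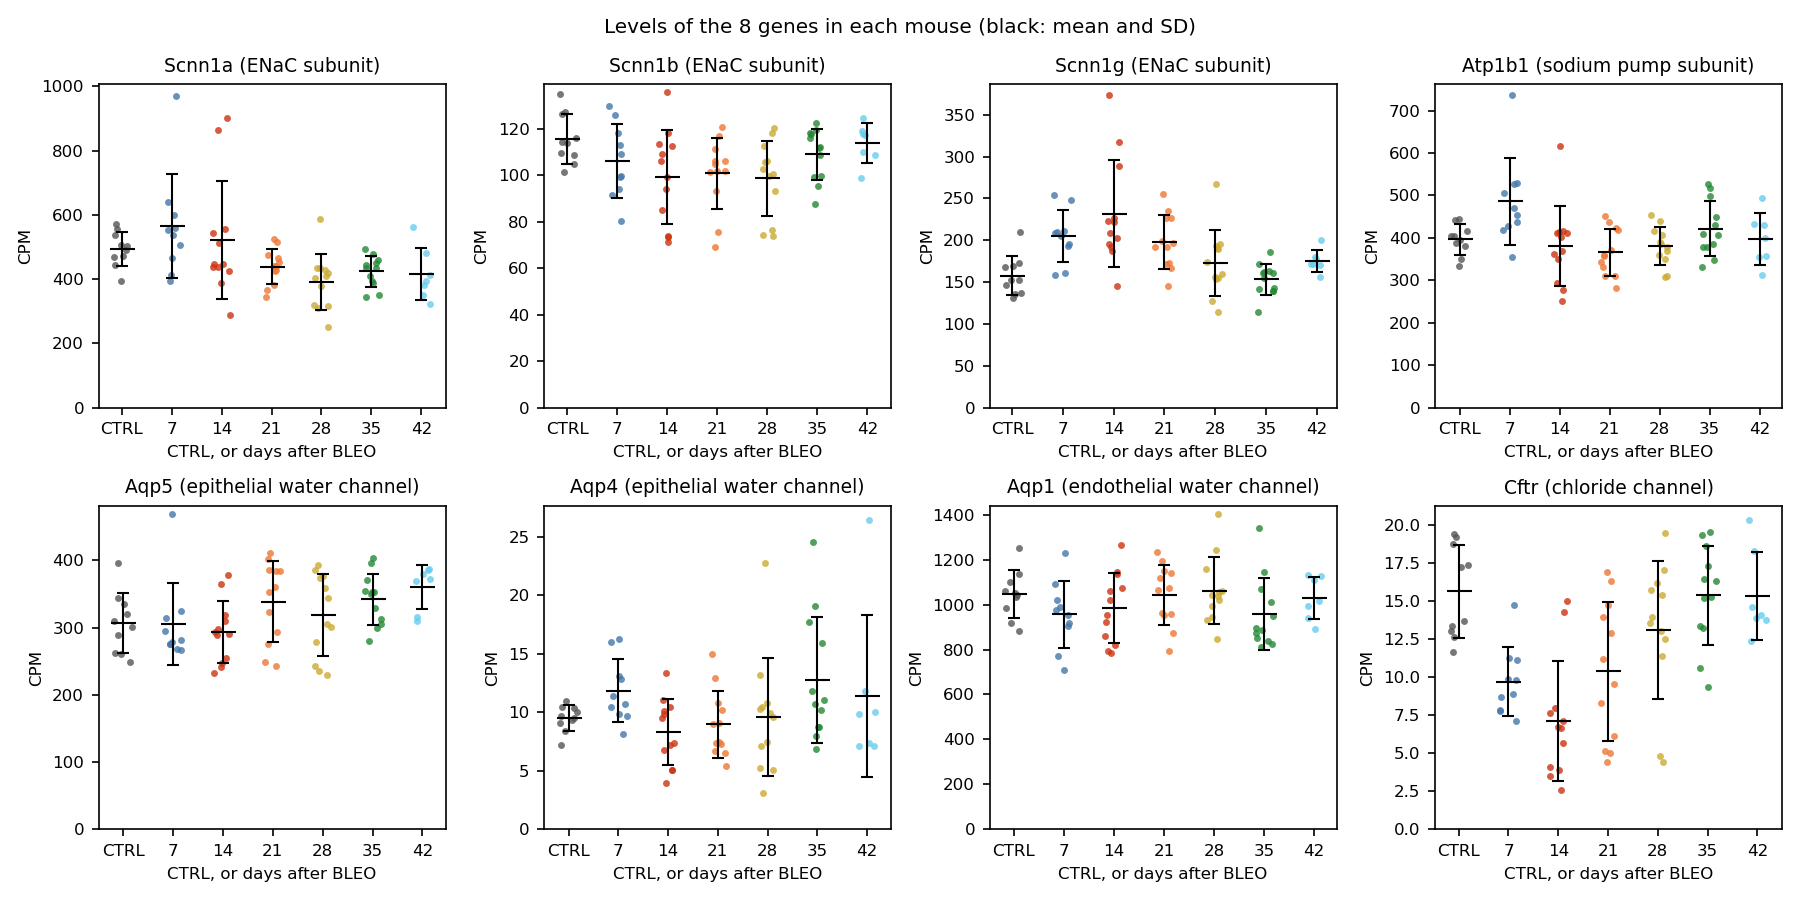
Each point is the level of a gene in 1 mouse, in CPM on the vertical axis, by group on the horizontal axis (CTRL, then days 7 to 42 after BLEO), with the group mean and SD in black. Cftr in most mice of days 7 and 14 lay below all CTRL mice, which ranged from 11.7 to 19.4 CPM, while the Aqp1 values of all groups overlapped.

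**Figure D2:**
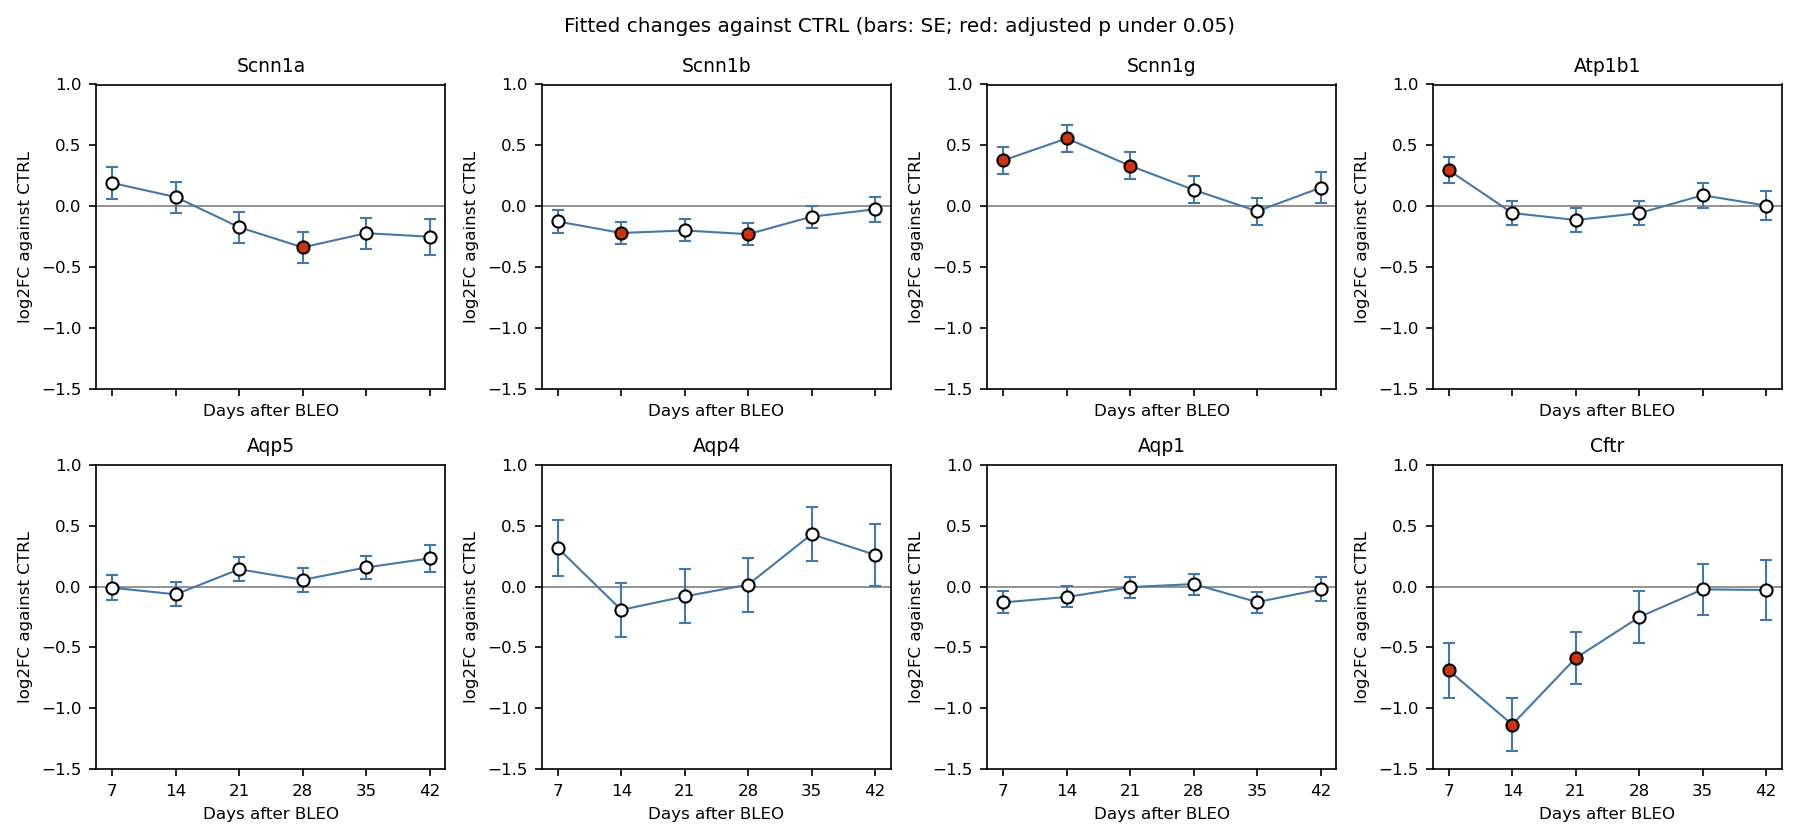
The log2FC of each gene against the 10 CTRL mice is shown by day after BLEO, with its SE as bars and red points where the adjusted p was under 0.05. Scnn1g peaked on day 14 at 0.56 and Cftr reached its lowest point on the same day at -1.13, whereas Aqp1, Aqp4 and Aqp5 have no red point.

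Levels of different genes were compared only per length, as CPM per kilobase of exon. In CTRL mice Aqp1 was the most abundant of the 8 at 399 CPM per kilobase, followed by Atp1b1 at 129, Scnn1a at 120 and Aqp5 at 118, which differed by less than the smallest of their SDs (11.6). Scnn1g at 52.7 and Scnn1b at 43.97 formed a lower pair, and Cftr at 2.01 and Aqp4 at 1.52 were the scarcest. Among the ENaC subunits the alpha subunit was thus above the beta and gamma subunits at the transcript level. When the longest transcript was used as length, Aqp5 rose to 171 CPM per kilobase and stood above Atp1b1 at 154 and Scnn1a at 141, so the order of these 3 depended on the length used. Across the 7 groups the highest group mean was 2.20 times the lowest for Cftr, 1.54 times for Aqp4, 1.51 times for Scnn1g and 1.44 times for Scnn1a, and between 1.11 and 1.33 times for the other genes. When the groups were put in order of their means, neighbours in that order differed by less than the larger SD of the pair in all 6 steps for 7 of the 8 genes and in 5 of 6 steps for Scnn1a.

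The 3 ENaC subunits did not move together. Scnn1g, the gamma subunit, ranged from 131 to 209.7 CPM in CTRL mice with a median of 153, and from 146 to 373 CPM on day 14 with a median of 216. No BLEO-IPF mouse of day 14 was below the CTRL range and 6 of 12 were above all CTRL mice. On day 7 the log2FC was 0.38 ± 0.11 (SE), on day 14 it reached 0.56 ± 0.11 and by day 21 it was 0.33 ± 0.11, with adjusted p = 0.0052, 1.3e-05 and 0.0084 in edgeR's test. On day 14 this was 1.47 times the CTRL level, with a 95% interval of 1.27 to 1.71. On days 28, 35 and 42 the log2FC was 0.13, -0.04 and 0.15, and none passed the test. Leaving out any 1 mouse kept the calls of days 7, 14 and 21.

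Scnn1b, the beta subunit, went the other way by a smaller amount. It ranged from 101 to 135 CPM in CTRL mice, with a median of 114, and from 71.4 to 136 CPM on day 14, with a median of 103. The groups overlapped, with 6 of 12 mice of day 14 below all CTRL mice and 1 above. The log2FC was -0.22 ± 0.09 (SE) on day 14 and -0.23 ± 0.09 on day 28 (adjusted p = 0.030 and 0.033 in edgeR's test), and -0.20 on day 21 (adjusted p = 0.055). These calls lay close to the threshold. Leaving out any of 6 mice (CTRL mice 1 and 2, and mice 1, 2, 3 and 7 of day 14) ended the call of day 14, with an adjusted p of up to 0.071, and leaving out CTRL mouse 1 or 2 or mouse 4, 5 or 10 of day 28 ended that of day 28, with an adjusted p of up to 0.077. Without mouse 10 of day 28, the library with muscle markers, Scnn1b gave a log2FC of -0.20 (adjusted p = 0.072).

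Scnn1a, the alpha subunit that the channel needs for its full activity, varied more among BLEO-IPF mice of days 7 and 14 than among CTRL mice. CTRL mice lay between 394 and 572 CPM, with a median of 496. On day 14 the lowest mouse had 288 CPM, the median was 447 and the highest had 902, and the SD of 184 CPM compared with 53.5 CPM in CTRL mice. Mouse 8 (902 CPM) and mouse 4 (864 CPM) of day 14 and mouse 5 of day 7 (969.6 CPM) were far above the rest. These 2 mice of day 14 were also the highest in their group for Scnn1g, at 317 and 373 CPM. Scnn1a was called on day 28, when the median was 407 CPM and 5 of 12 mice lay below all CTRL mice (log2FC -0.34 ± 0.13 (SE), adjusted p = 0.025 in edgeR's test). This call held without mouse 10 of that day (log2FC -0.31, adjusted p = 0.044) and was lost without mouse 5 (adjusted p = 0.058). The other log2FC values were 0.19 and 0.07 on the first 2 time points (days 7 and 14), -0.17 on day 21, and -0.22 and -0.25 on days 35 and 42, and none of these passed.

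The balance of the subunits was compared as the log2 ratio of 2 genes' counts within the same mouse, which removes the scaling between libraries. For 3 ratios on 6 days, 18 tests are given as differences in mean against CTRL by two-sided permutation, exact on day 42 and with 100000 resamples on the other days, and adjusted by Benjamini-Hochberg over all 24 tests of the design. Of the 18, 8 passed. The ratio of Scnn1a to Scnn1g was lower in BLEO-IPF mice of days 14, 21 and 28, with differences of -0.51 ± 0.09 (SE), -0.50 ± 0.08 and -0.48 ± 0.09 (permutation, adjusted p = 0.00032 each). Counts of Scnn1a were 2.58 to 3.90 times those of Scnn1g in CTRL mice, with a median of 3.10, and 1.94 to 2.55 times on day 21, with a median of 2.20. All 12 mice of day 21 were below all CTRL mice, as were 10 of 12 on day 14 and, later, 9 of 12 on day 28. The difference was -0.43 ± 0.10 on day 42 (exact permutation, n = 7, adjusted p = 0.0064, 5 of 7 mice below all CTRL mice), and -0.22 on day 7 and -0.18 on day 35 did not pass (permutation, adjusted p = 0.088 each).

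The ratio of Scnn1a to Scnn1b differed in sign between early and late days. It was higher than in CTRL mice on day 7 by 0.29 ± 0.11 (SE) on the log2 scale (permutation, adjusted p = 0.032, 6 of 10 mice above all CTRL mice), and 0.25 ± 0.11 on day 14 did not pass (permutation, adjusted p = 0.080). On day 42 it was lower, with a difference of -0.24 ± 0.09 (exact permutation, n = 7, adjusted p = 0.039, 5 of 7 mice below all CTRL mice). With a difference in medians this call of day 42 was lost (adjusted p = 0.14). Both ratios share Scnn1a and are not independent. Scnn1g to Scnn1b was added after the values were seen and is given with no test. Counts of Scnn1g were 1.24 to 1.55 times those of Scnn1b in CTRL mice, 1.76 to 2.22 times on day 7 and 1.88 to 2.82 times on day 14. No mouse of days 7 and 14 overlapped with CTRL mice in this ratio. The median was 2.30 on day 14, and on days 21, 28, 35 and 42 it was 2.03, 1.65, 1.44 and 1.502, beside 1.33 in CTRL mice.

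**Figure D3:**
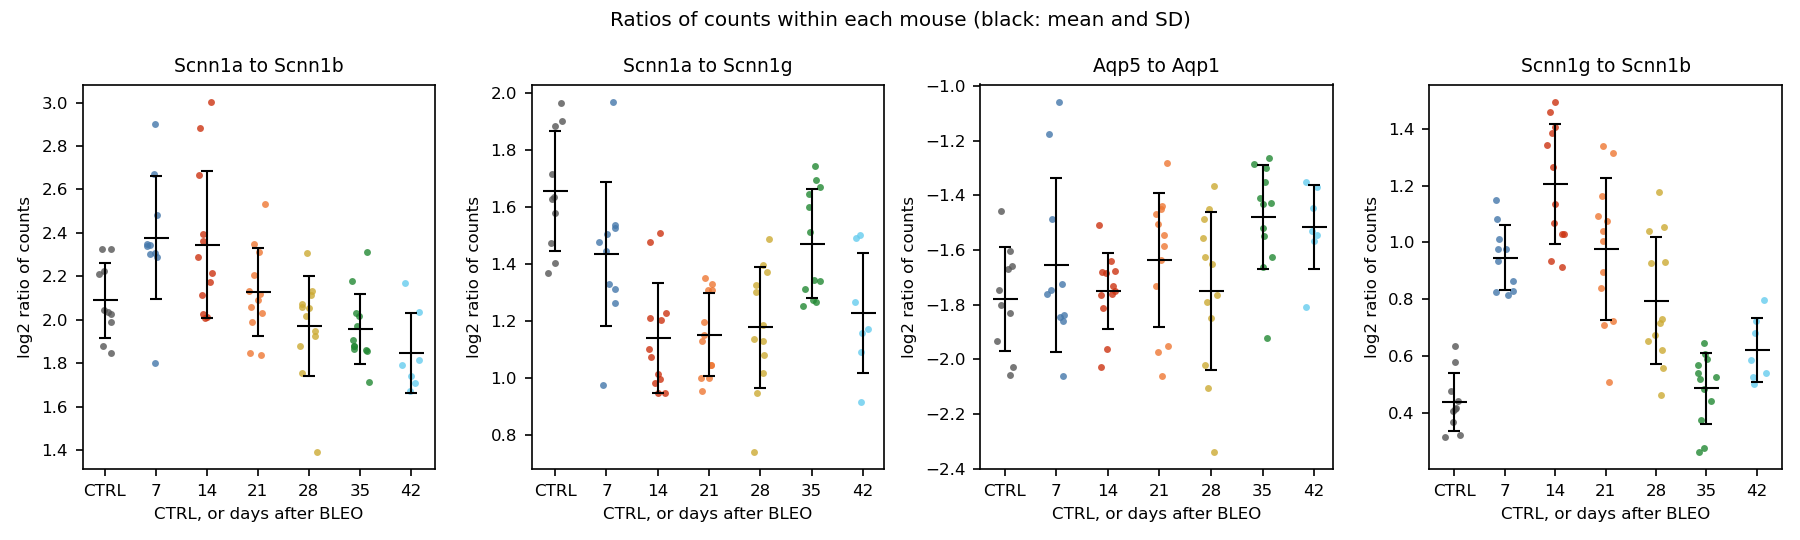
The log2 ratio of 2 genes' counts in each mouse is plotted by group (CTRL, then days after BLEO), with the group mean and SD in black, for the 3 ratios tested and for Scnn1g to Scnn1b, which was not tested. In the right panel the mice of days 7 and 14 lie wholly above the CTRL mice, and from day 21 on the groups overlap.

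Atp1b1, the beta subunit that brings the sodium pump to the membrane, rose on day 7 and was not called from day 14 on. CTRL mice ranged from 333 to 445 CPM with a median of 399.6, and mice of day 7 from 356 to 737 CPM with a median of 462, and 6 of these 10 lay above all CTRL mice. The log2FC was 0.30 ± 0.11 (SE) with adjusted p = 0.017 in edgeR's test. Mouse 5 of day 7, the same mouse that had the highest Scnn1a, carried the highest value, and without it the log2FC was 0.22 and the adjusted p 0.078. From day 14 to day 42 the log2FC lay between -0.11 and 0.09, with no call.

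None of the 3 water channels was called against CTRL on any day in the edgeR fit over all groups, whereas a fit of only the groups compared called Aqp5 on day 42. Aqp1, the endothelial channel, had group medians between 892 and 1072 CPM, and the ranges of all groups overlapped. On day 14 its log2FC was -0.09, with a 95% interval of -0.25 to 0.08, and on day 42 it was -0.02 (-0.22 to 0.17). In the same libraries the summed level of 8 endothelial markers fell from a CTRL range of 3821 to 5057 CPM to 2015 to 3755 CPM on day 14, and 7 of the 8 were called lower, whose part in the Aqp1 result was not tested. Of the 6 mice with the lowest endothelial sums, 5 had less Aqp1 than all CTRL mice. Per 1000 CPM of these markers, Aqp1 had a median of 250.5 CPM in CTRL mice and 338 CPM on day 14, a scaling chosen after the values were seen and given with no test.

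Aqp5, the AT1 channel, ranged from 249 to 397 CPM in CTRL mice, with a median of 306, from 233 to 378 CPM on day 14, with a median of 293, and from 309 to 388 CPM on day 42, with a median of 373. The groups overlapped throughout. Its log2FC against CTRL was -0.06 on day 14 (95% interval -0.26 to 0.13) and 0.23 on day 42 (0.01 to 0.45, adjusted p = 0.12 in edgeR's test). The ratio of Aqp5 to Aqp1 was higher than in CTRL mice on day 35, by 0.30 ± 0.08 (permutation, adjusted p = 0.0086, 7 of 12 mice above all CTRL mice), and on day 42, by 0.26 ± 0.08 (exact permutation, n = 7, adjusted p = 0.031, 3 of 7 mice above). The latter was lost with medians (adjusted p = 0.16).

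Aqp4 was scarce, with 32 to 272 counts per mouse. CTRL mice lay between 7.16 and 10.9 CPM, with a median of 9.57, but BLEO-IPF mice scattered widely, from 3.10 to 22.8 CPM on day 28 and from 7.10 to 26.5 CPM on day 42. SDs of 5.06, 5.38 and 6.89 CPM on days 28, 35 and 42 compared with 1.11 CPM in CTRL mice. The spread of day 42 came from mouse 1 (26.5 CPM), and the other 6 mice lay between 7.10 and 11.8 CPM, with an SD of 1.98 CPM. On days 28 and 35 mice lay on both sides of the CTRL range, with 4 of 12 below and 2 above on day 28 and 1 below and 6 above on day 35. The largest log2FC was 0.43 ± 0.22 (SE) on day 35, with adjusted p = 0.13 in edgeR's test.

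Cftr showed the largest change. CTRL mice ranged from 11.7 to 19.4 CPM with a median of 15.5, mice of day 7 from 7.08 to 14.7 CPM with a median of 9.35, and mice of day 14 from 2.55 to 15.02 CPM with a median of 6.70. On day 7, 9 of 10 mice were below all CTRL mice, and on day 14, 10 of 12 were. Its log2FC in edgeR's test was -0.69 ± 0.22 (SE) on day 7 (adjusted p = 0.0092), fell further to -1.13 ± 0.22 on day 14 (adjusted p = 7.1e-06) and stood at -0.59 ± 0.21 on day 21 (adjusted p = 0.016). The day 14 level was 0.456 times that of CTRL mice, with a 95% interval of 0.339 to 0.612. The share of counts from mitochondrial genes was 1.62 to 2.09% in CTRL mice, 0.865 to 1.73% on day 14 and 0.942 to 1.22% in the 4 mice of day 14 with the least Cftr, and its part in the result was not tested. On day 28 the log2FC was -0.25 and no longer called, and on days 35 and 42 it was -0.02 and -0.03. Leaving out any 1 mouse kept the 3 calls.

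Transcripts of AT2 cells were lower on day 14, the day of the lowest Cftr. The summed level of 8 AT2 markers, which include the surfactant protein genes Sftpc, Sftpb and Sftpa1, ranged from 20720 to 25540 CPM in CTRL mice and from 5802 to 22170 CPM on day 14, and 6 of the 8 were called lower. On days 7 and 21, when Cftr was also called lower, 1 of these markers was called lower and 1 higher on each day. Per 1000 CPM of the AT2 markers, Cftr had a median of 0.682 CPM in CTRL mice and of 0.466, 0.522 and 0.513 CPM on days 7, 14 and 21. On days 28, 35 and 42 the median was 0.644, 0.695 and 0.553 CPM. This scaling was chosen after the values were seen, is given with no test, and the part of AT2 markers in the Cftr result was not tested. Cftr is also expressed in airways, and 5 of 5 club cell markers and 6 of 6 ciliated cell markers were called lower on day 14.

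**Figure D4:**
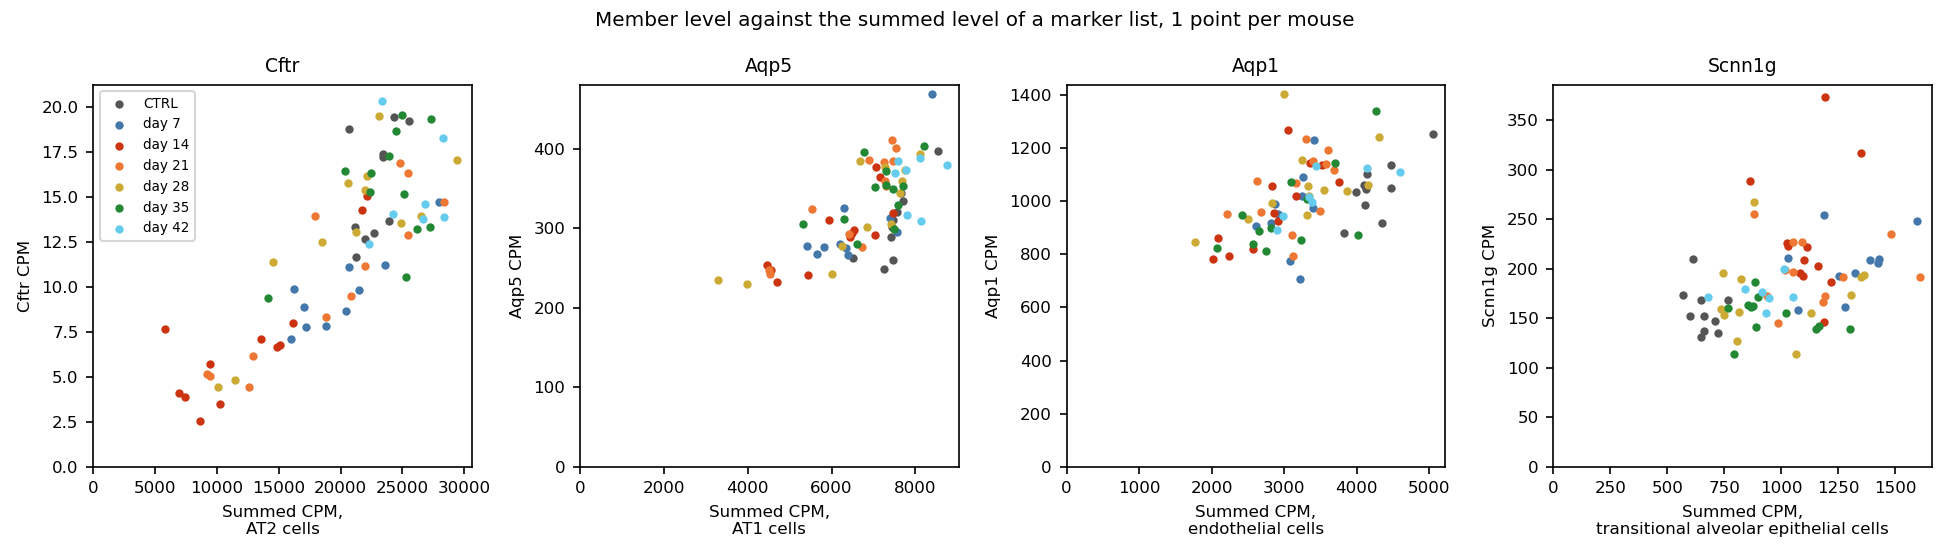
Each point is 1 mouse, colored by group, with the CPM of a gene on the vertical axis and the summed CPM of a marker list on the horizontal axis. On day 14 Cftr goes down to 2.55 CPM and the AT2 marker sum down to 5802 CPM. On day 7 Cftr is at 7.08 to 14.7 CPM with AT2 sums of 16000 to 27960 CPM. Against CTRL, the medians of Aqp5 and of the AT1 sum are both lower on days 7 and 14 and both higher on day 42. On days 21, 28 and 35 the median of Aqp5 is higher and that of the AT1 sum lower. Per 1000 CPM of AT1 markers, the median of Aqp5 is higher on every BLEO day than in CTRL mice (not tested, scaling chosen after the values were seen). In the 6 mice with the lowest endothelial sums, up to 2246 CPM, Aqp1 is at 784 to 953 CPM. Scnn1g scatters against the sum of markers of transitional epithelial cells.

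Other cell type markers also changed on the days when Scnn1g was called, and some of them on later days too. All 6 markers of transitional alveolar epithelial cells, which appear between the AT2 and the AT1 state after injury, were called higher on day 7 and 5 of 6 on every later day. Their summed level was 571 to 769 CPM in CTRL mice, 1032 to 1594 CPM on day 7 and 865 to 1351 CPM on day 14. Of 8 AT1 markers 5 were called lower and 1 higher on day 14. Per 1000 CPM of AT1 markers Scnn1g had a median of 20.3 CPM in CTRL mice, 32.7 CPM on day 7 and 35.2 CPM on day 14 (not tested, scaling chosen after the values were seen). On day 14, 32.4% of all genes were called higher and 29.9% lower. Of 5 leukocyte markers 3 were called higher that day, and Ptprc (log2FC 0.005) and Coro1a (0.14) were not called. Fibroblast markers were higher (5 of 6), and all 5 markers of red blood cells were lower. Mesothelial markers had 1 of 5 called higher on day 14, capillary endothelial markers 5 of 6 lower, and cardiac and skeletal muscle markers 1 of 5 and 0 of 3 tested higher. The part of these lists in the results was not tested.

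Between BLEO days, Atp1b1 was lower on day 14 than on day 7 (log2FC -0.35 ± 0.10 (SE), adjusted p = 0.010 in edgeR's test), the only 1 of the 8 genes called there, when 17% of all genes were. From day 14 to day 42, 3 of the 8 were called, beside 34% of all genes. Cftr rose by 1.11 ± 0.24 on the log2 scale (adjusted p = 0.00020 in edgeR's test), with all 7 mice of day 42 between 12.4 and 20.4 CPM. Aqp5 rose by 0.30 ± 0.11 (adjusted p = 0.027), and Scnn1g fell, with a log2FC of -0.41 ± 0.12 (adjusted p = 0.0076). The Aqp5 call was lost without mouse 1 of day 14 or mouse 3 of day 42 (adjusted p up to 0.053), and the Atp1b1 call in a fit of only days 7 and 14 (adjusted p = 0.062). Both comparisons use the mice of day 14.

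How the 8 genes varied among mice of the same group is described by the correlation of deviations from the group mean of log2 CPM over all 75 mice, without a test, since mice share depth and composition effects. The ENaC subunits varied together, with Pearson's r of 0.73 for Scnn1b and Scnn1g, 0.74 for Scnn1a and Scnn1g and 0.62 for Scnn1a and Scnn1b (Spearman's rho 0.69, 0.59 and 0.52). Atp1b1 had r = 0.56 with Scnn1a (rho 0.42). Cftr had r = 0.47 with Aqp5 (rho 0.38), and Aqp4 had negative values with Aqp1 (r = -0.44, rho -0.46) and Scnn1g (r = -0.30, rho -0.33).

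The genes most like each member in these deviations were cell type markers for some and not for others. Aqp5 was most like Ager (r = 0.86, rho 0.85), an AT1 marker, then Clic3 (0.80) and Bcam (0.79). Cftr was most like Fgfr2 (r = 0.86, rho 0.80), the surfactant protein gene Sftpa1 (0.84) and Rph3al (0.83). Scnn1g had Trim16 (0.80), Itga3 (0.76) and Capn2 (0.76), and Scnn1b had Clic3 (0.76), Wwc1 (0.75) and Scnn1g. Scnn1a had Fbxw8 (0.80), Pacsin2 (0.80) and Fads3 (0.78). Aqp1 had Ehd1 (0.76), Nsg1 (0.76) and Parvb (0.73). Lower values were found for Atp1b1 with Vapa (0.72), Fdx1 (0.71) and Retreg1 (0.71), and for Aqp4 with Adam28 (0.70), Vtcn1 (0.69) and Zbbx (0.68).

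The genes around these channels were taken from 6 lists that hold other pump subunits, ENaC proteases, hormone and kinase control, and other water, anion and cation transport. Of their 62 genes, 56 were tested and 6 had too few counts, at most 49 in any library. On day 14, 24 were called higher and 19 lower, beside 32.4% and 29.9% of all genes. Day 7 had 20 higher and 10 lower genes (24.8% and 21% of all genes), and day 21 had 24 and 13 (28.3% and 25.8%). Day 28 had 21 and 9 (24.1% and 19.2%), day 35 had 19 and 8 (16.9% and 13.1%), and day 42 had 14 and 10 (13.7% and 11%). Counts of single lists given below stand beside these shares of all genes for the same day. The same direction was called on all 6 days for 11 genes that were higher and 5 that were lower, and 5 genes were called on no day, where these conditions held for 8.33%, 5.31% and 24.4% of all genes tested. The median log2FC of the tested genes was -0.008 on day 14.

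Among 6 subunits of the Na,K-ATPase and its FXYD regulators, small membrane proteins that tune the pump, 4 were higher and 1 lower on day 14. Fxyd5 rose from 60.1 to 73.3 CPM in CTRL mice to 92.1 to 185 CPM on day 14 (log2FC 0.98 ± 0.14 (SE), adjusted p = 1.7e-08 in edgeR's test), with no overlap, and it was higher on all 6 days. Fxyd6 was higher on all 6 days too, with a log2FC on day 14 of 1.37. Fxyd1, known as phospholemman, was lower on all 6 days, with a log2FC between -0.73 and -0.45. Its level was 34.3 to 47.2 CPM in CTRL mice and 22.5 to 32.5 CPM on day 14, without overlap. On day 42, 2 of the 6 were higher and 1 lower.

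Of 8 proteases and inhibitors that act on ENaC, 5 were higher and 3 lower on day 14, and 6 and 1 on day 7. Prss8, the channel-activating protease prostasin, was not named by the rule and was added after its values were seen: it was lower on days 7, 14 and 21 (log2FC -0.43, -0.76 and -0.35), with a CTRL range of 68.6 to 91.4 CPM and 21.4 to 73.6 CPM on day 14. The protease St14 (matriptase) and its inhibitor Spint1 were higher on all 6 days, St14 by 0.34 to 0.64 and Spint1 by 0.18 to 0.41 on the log2 scale. The protease inhibitor Serpine2 was higher on days 7 to 35, with 131 to 149.8 CPM in CTRL mice and 268 to 800.2 CPM on day 14 (log2FC 1.95 ± 0.24, adjusted p = 2.5e-10 in edgeR's test). Prss22 had 0 to 2 counts in CTRL mice and 2 to 72 counts on day 14, and no fold change is given for it.

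Hormone and kinase control of sodium transport was covered by 15 genes. On day 14, 4 of them were higher and 8 lower, beside 32.4% and 29.9% of all genes. The mineralocorticoid receptor Nr3c2 had 24.7 to 34.1 CPM in CTRL mice and 6.87 to 15.7 CPM on day 14, with no overlap (log2FC -1.54 ± 0.14 (SE), adjusted p = 2.5e-14 in edgeR's test). It was lower on all 6 days, with a log2FC of -0.63 on day 42. Hsd11b2, the enzyme that inactivates glucocorticoids and so protects that receptor, was higher on all 6 days, with its largest log2FC on day 7 at 1.95 and a level of 1.43 to 3.42 CPM in CTRL mice. Sgk1, a kinase that raises ENaC at the membrane, was higher on all 6 days. It had 80.1 to 112 CPM in CTRL mice and 132 to 792 CPM on day 14 (log2FC 1.35). Its median on day 14 was 166 CPM, below the mean of 241 CPM, with an SD of 184.5 CPM. On day 42 Sgk1 had 145 to 197 CPM, with a median of 157 CPM (log2FC 0.79). The adenosine receptor Adora2b was also higher on all 6 days (log2FC 0.34 to 0.82).

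Among 6 other water channels 3 had enough counts. Aqp11, an aquaporin of the endoplasmic reticulum, was lower on all 6 days, with 4.22 to 7.02 CPM in CTRL mice and 1.89 to 3.95 CPM on day 14 (log2FC -0.89 ± 0.13 (SE), adjusted p = 1.8e-08 in edgeR's test), without overlap. Aqp9 was called higher on day 14 (log2FC 0.50, adjusted p = 0.030) from 0.511 to 1.81 CPM in CTRL mice.

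Of 13 genes of chloride and anion transport 12 were tested. On day 14, 4 of these were higher and 2 lower, beside 32.4% and 29.9% of all genes. Slc26a4, the anion exchanger pendrin, had 1.24 to 6.12 CPM in CTRL mice, 8.06 to 46.7 CPM on day 14 and 19.2 to 67.7 CPM on day 42, with no overlap on those days. Its log2FC was 3.24 ± 0.34 (SE) on day 14 and 3.81 ± 0.37 on day 42 (adjusted p = 1.8e-12 and 2.0e-12 in edgeR's test), and it was higher on all 6 days. Clca1, a secreted product of mucous cells, had 0 to 2 counts in CTRL mice and 0 to 174 on day 14, and no fold change is given for it.

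Of 14 potassium channels, proton pumps and other routes of sodium entry 12 were tested, and 6 were higher and 4 lower on day 14. Kcnn4, a calcium-activated potassium channel, was higher on all 6 days (log2FC 1.41 ± 0.19 (SE) on day 14, adjusted p = 2.3e-09 in edgeR's test), and so was Kcnk1 (0.47 on day 14). Kcne2, a potassium channel subunit, was lower on days 7, 14 and 21 and had 19.9 to 28.6 CPM in CTRL mice and 7.09 to 19.2 CPM on day 14.

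**Figure D5:**
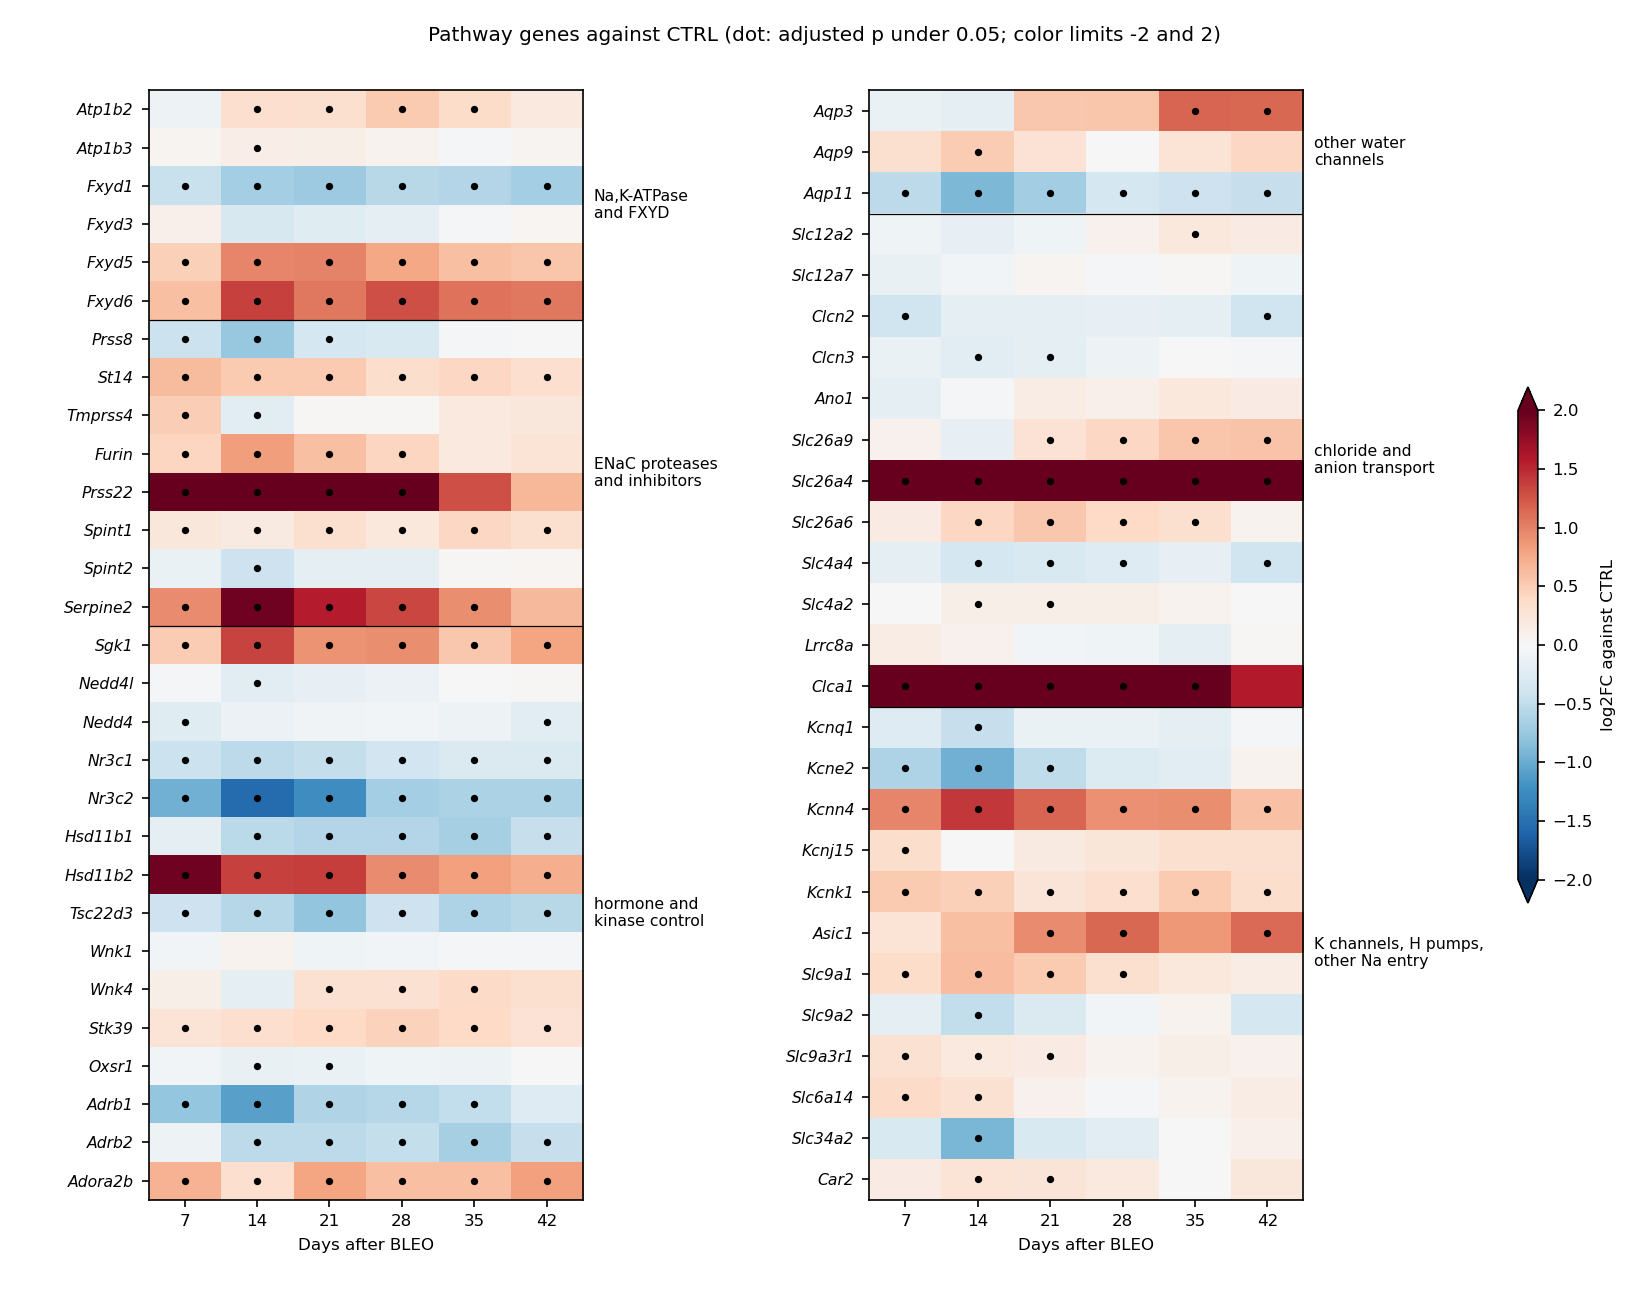
Rows are the 56 tested genes of the 6 lists and columns are days after BLEO, colored by log2FC against CTRL (limits -2 and 2), with a dot where the adjusted p was under 0.05. Slc26a4, Kcnn4, Fxyd5, Fxyd6 and Sgk1 stay red and Nr3c2 and Aqp11 stay blue through day 42.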

How the data were processed

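RNA sequencing of the inferior lung lobe of 75 mice was used, 1 library a mouse. The authors purified RNA, prepared directional libraries, sequenced them single-end, aligned reads with STAR 2.7.0f to the Ensembl 96 release of GRCm38 and deposited raw counts per gene. The counting program is not given in the sources used here. Columns were matched to mice by the library name in the labels, and no column was left unused. The closest of 375 pairs of mice within groups had a chi-square of 3.88 per degree of freedom over genes, so no library was counted as a repeat.

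From the counts, edgeR 4.0.16 (R 4.3.3, quasi-likelihood F test, TMM factors, filterByExpr, 1 mean per group over all 75 mice) tested 16221 genes, with Benjamini-Hochberg adjustment at 0.05. CPM uses TMM factors. Log2 CPM used a prior count of 2 and ratios a pseudocount of 0.5 (scipy 1.17.1). A planned ratio and 3 listed genes are not reported here. Intervals of log2FC are at 95% from the SE. Exon lengths and coordinates are from GENCODE M21 (GRCm38), the annotation of the same Ensembl release. The median log2FC over all genes was at most 0.018 in size. Steps were tested on simulated data. The alternatives were DESeq2 1.42.0, library size only, upper quartile factors, no filter, a fit restricted to both groups of a comparison, a replicate block and 75 refits without 1 mouse.

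The 8 genes, the lists and the alternatives were chosen with earlier results of these data known. Named pathway genes were, per list, up to 4 called in 1 direction on all 6 days by mean size, and the 2 largest called on day 14. For likeness, the 3 genes with the highest r and a gene symbol were named. The labels number the replicates and do not tie them to litters or cages.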

Additional observations from a re-analysis of the deposited data

Results flagged for a closer look

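The values of single mice stood apart from their group 4 times by Dixon's test at 95%. The test covered 33 sets of values from groups of 4 to 10 mice, of which chance flags about 1 in 20. Days 14, 21, 28 and 35, with 12 mice each, were not covered. Mouse 5 of day 7 had 969.6 CPM of Scnn1a, where the next mouse had 638.5, and 737 CPM of Atp1b1, where the next had 529. Mouse 3 of day 7 had 469 CPM of Aqp5, where the next had 325. Mouse 1 of day 42 had 26.5 CPM of Aqp4, where the next had 11.8. The same mouse had a summed skeletal muscle marker level of 1.98 CPM and a cardiac one of 37.7 CPM, both the lowest of its group.

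The fold change against CTRL of 4 genes differed between days in edgeR's test of the days themselves. Atp1b1 differed by -0.35 on the log2 scale between day 14 and day 7 (adjusted p = 0.010). From day 14 to day 42 Scnn1g differed by -0.41 (adjusted p = 0.0076), Cftr by 1.11 (adjusted p = 0.00020) and Aqp5 by 0.30 (adjusted p = 0.027).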

How the results depend on the processing

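Of 384 log2FC values of the 8 genes under 6 alternatives, 371 kept their side of the threshold, 9 gained and 4 lost a call, and 0 called values reversed. Among uncalled values 3 changed sign, all of them at most 0.023 in size. Without the low-count filter Scnn1b was lost on days 14 and 28 (adjusted p = 0.059 and 0.069) and Aqp5 between days 14 and 42 (adjusted p = 0.052). Fitting only the groups compared called 4 of the 8 genes on day 21, 1 on day 35, 2 on day 42 and 0 between days 14 and 7, and dropping the low-count filter called 1 on day 28. Leaving out 1 mouse gave 0 to 2 calls on day 28 and 1 to 2 between days 14 and 7. Other comparisons changed too, and the calls lost there are given with each gene above. Scnn1b gained a call on day 21 in 10 of 22 such refits. Between days 14 and 42, Scnn1a gained a call in 3 of 19 refits and Scnn1b in 1. For ratios, comparing medians ended the calls of Scnn1a to Scnn1b (-0.25) and Aqp5 to Aqp1 (0.24) on day 42. The cause was not tested. Replicate numbers did not pair the mice, since the median correlation of deviations was 0.0057 for 204 same-number pairs and 0.0018 for others. Ratio calls of day 42 were also compared with mice paired by replicate number, which left out CTRL mice 8, 9 and 10. The calls were then lost for Scnn1a to Scnn1b (-0.17), Scnn1a to Scnn1g (-0.35) and Aqp5 to Aqp1 (0.21). With 7 pairs the smallest p that this comparison can reach is high, so it cannot show whether the calls hold under pairing. The replicate block in edgeR's fit gave 3, 3, 3, 2, 0 and 0 of the 8 genes called on days 7 to 42. Total counts of 9240291 to 14665247 leave Aqp4 and Cftr with the fewest counts of the 8 genes.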
